A study of Mus musculus with 7 samples.

Results

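The genes described here are the 9 genes of MHC class II antigen presentation chosen by symbol from the table of 53465 genes: *H2-Aa*, *H2-Ab1*, *H2-Eb1*, *Cd74*, *Ctss*, *Ciita*, *H2-DMa*, *H2-DMb1* and *H2-Oa*. All 9 were found in the table. The series holds RNA-seq libraries of 6 primary tumors, 3 of the group EMT6-P and 3 of the group EMT6-PTR, together with 1 library of a metastasis. EMT6 is a mammary carcinoma line of BALB/c mice, of which 500000 cells were placed orthotopically in female BALB/c hosts. EMT6-P tumors belonged to the parental (P) variant under isotype control antibody. EMT6-PTR tumors and the metastasis came from the variant selected for resistance to PD-L1 blockade (written PDR in the labels) under αPD-L1 antibody. The paper states that both variants were taken from primary tumors in mice, P from mice given IgG. Both antibodies were given at 250 μg per mouse every 3 days from day 1 until the endpoint, so that the variant and its antibody cannot be told apart. The hosts had an intact immune system, and whole tumor tissue was sequenced. The labels do not say from which organ the metastasis was taken, and its source is labelled as breast tumor tissue.

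MHC class II molecules are pairs of an α and a β chain that show peptides from endocytosed proteins to CD4+ T cells. Dendritic cells, B cells and activated macrophages carry them, and many other cells, some carcinoma cells included, can be induced to do so by interferon-γ. The chains fold with the invariant chain, cathepsin S trims that chain down to a fragment in the groove, H2-DM exchanges the fragment for a peptide, and H2-O restrains H2-DM. Transcription of the whole set runs through the coactivator CIITA, which binds no DNA itself and is recruited by RFX, CREB and NF-Y proteins seated on the promoters.

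None of the 9 genes differed between EMT6-PTR and EMT6-P tumors past the threshold. The same held by edgeR for all 15645 genes tested. The 2 groups overlapped for every one of the 9 genes. The classical chains and the invariant chain were lowest in the same pair of tumors, one from each group. *Ciita* and *H2-Oa* had the largest fitted differences, and both varied more than 4-fold among the 6 tumors. The metastasis held the highest value of the 7 libraries for 7 of the 9 genes.

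Letters known to be bound by regulators of the set were looked for in its promoters. RefSeq promoter sequences (GRCm38.p6, 250 bases before to 50 after the start) were matched for 6 of the 9 genes, and those of *Cd74*, *Ciita* and *H2-Ab1* were not among them. 2 motifs of the class II promoter module were searched on both strands: TGATTGG, the Y box bound by NF-Y, which holds the inverted CCAAT box, and GNAAC, the core letters of the X box bound by RFX. Another motif, GAAANNGAA, stands for elements bound by interferon-regulatory factors and can overlap GNAAC. The sequences had been seen when the spacing rule was chosen, so that the counts are a description. The stretches below are shown because they hold these letters at the proximal promoters of an α chain, a β chain, the H2-DM inhibitor and the processing protease. Capitals mark GNAAC and TGATTGG in the first 3 and GAAANNGAA, with its overlap to GNAAC, in the last.
*H2-Aa*, chr17:34287859-34287918, minus strand: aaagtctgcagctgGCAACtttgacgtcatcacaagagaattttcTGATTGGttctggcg
*H2-Eb1*, chr17:34305762-34305821, plus strand: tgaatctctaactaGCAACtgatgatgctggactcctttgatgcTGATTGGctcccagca
*H2-Oa*, chr17:34092281-34092340, plus strand: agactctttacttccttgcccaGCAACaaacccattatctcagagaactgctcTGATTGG
*Ctss*, chr3:95526726-95526785, plus strand: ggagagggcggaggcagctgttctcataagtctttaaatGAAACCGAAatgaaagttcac

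TGATTGG was present in the promoters of 4 of the 6 matched genes (*H2-Aa*, *H2-Eb1*, *H2-DMb1* and *H2-Oa*). These 6 genes had 7 promoters, of which 4 held it, against 7.82% of 32851 promoters of the same length. In all 4 a GNAAC on the same strand ended 10 to 35 bases before it, an arrangement found in 0.682% of all promoters, although GNAAC alone occurred in 84.8% of them. In *H2-DMb1*, whose sequence is not printed, GNAAC began at base -94 and TGATTGG at base -63 from the start. The promoters of *H2-DMa* and *Ctss* held no TGATTGG in this window, and GAAANNGAA was present in that of *Ctss* alone among the 6, against 8.56% of all promoters. These windows come from the reference strain and not from BALB/c.

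The libraries held between 20430110 and 25213472 estimated counts in total. Levels are given as CPM (counts scaled to a common library size by upper-quartile factors over the 7 libraries), and differences are log2 fold changes of EMT6-PTR over EMT6-P with their standard error (SE) from edgeR's quasi-likelihood test, adjusted by Benjamini-Hochberg over all 15645 genes tested. The labels do not state that the tumors came from separate animals, and the p-values measure the spread between these tumors. Several libraries stood apart in other tissues' markers. The summed level of 5 skeletal muscle genes was 3322.6 CPM in EMT6-PTR replicate 1 and between 3.52 and 584.1 CPM in the other primary tumors. The summed level of 5 epithelial carcinoma genes was 595.0 CPM in EMT6-PTR replicate 3 and between 2103.1 and 2347.4 CPM in the other primary tumors. The summed level of 6 lung genes was 8227.2 CPM in the metastasis and at most 26.1 CPM in the primary tumors. In bulk tumor RNA, fewer cells of a type and less RNA per cell cannot be told apart.

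The classical chains were abundant in every tumor. *H2-Aa* (chromosome 17, 34282744 to 34287823, minus strand, GRCm38, as are all positions here), the α chain of the I-A molecule, was at 336.4, 184.6 and 407.6 CPM in EMT6-P replicates 1 to 3 and at 404.3, 408.4 and 274.4 CPM in EMT6-PTR replicates 1 to 3. *H2-Ab1* (chromosome 17, 34257689 to 34269419, plus strand), its β chain, was at 281.5, 182.6 and 333.7 CPM in EMT6-P and at 325.4, 351.2 and 221.5 CPM in EMT6-PTR. *H2-Eb1* (chromosome 17, 34305867 to 34316674, plus strand), the β chain of the I-E molecule, was at 272.3, 152.0 and 298.3 CPM in EMT6-P and at 296.8, 313.5 and 163.4 CPM in EMT6-PTR. For all 3 chains EMT6-P replicate 2 was the lowest tumor and EMT6-PTR replicate 3 the next, the remaining 4 tumors lay close together, and the groups overlapped.

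The fitted differences of the chains were small beside their errors. The log2 fold change was 0.23 ± 0.32 (SE, n = 3 per group) for *H2-Aa* (edgeR adjusted p = 0.779), 0.17 ± 0.28 for *H2-Ab1* (edgeR adjusted p = 0.812) and 0.10 ± 0.34 for *H2-Eb1* (edgeR adjusted p = 0.922). The 95% intervals ran from -0.54 to 0.99, from -0.50 to 0.84 and from -0.72 to 0.92. These intervals reach nearly to a doubling and include falls, so that the size of any difference was not resolved. Without EMT6-P replicate 2 the estimates fell to -0.04 for *H2-Aa*, -0.04 for *H2-Ab1* and -0.15 for *H2-Eb1*, so that their sign rested on that tumor. The sign of *H2-Eb1* also turned without EMT6-PTR replicate 1 (-0.02) or replicate 2 (-0.06).

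The α chain that pairs with *H2-Eb1* is a special case of strain. The reference annotation lists it as *H2-Ea-ps*, a pseudogene, because the reference strain does not express it, whereas BALB/c mice do. It was at 130.0, 58.1 and 128.3 CPM in EMT6-P, at 166.6, 164.6 and 80.3 CPM in EMT6-PTR and at 259.5 CPM in the metastasis. Its order over the tumors had the same lowest pair as that of its partner. The log2 fold change was 0.38 (edgeR adjusted p = 0.704). Reads from BALB/c alleles were counted against sequences of the reference strain, in which class II alleles differ, and the effect of this on the levels was not tested.

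**Figure D1:**
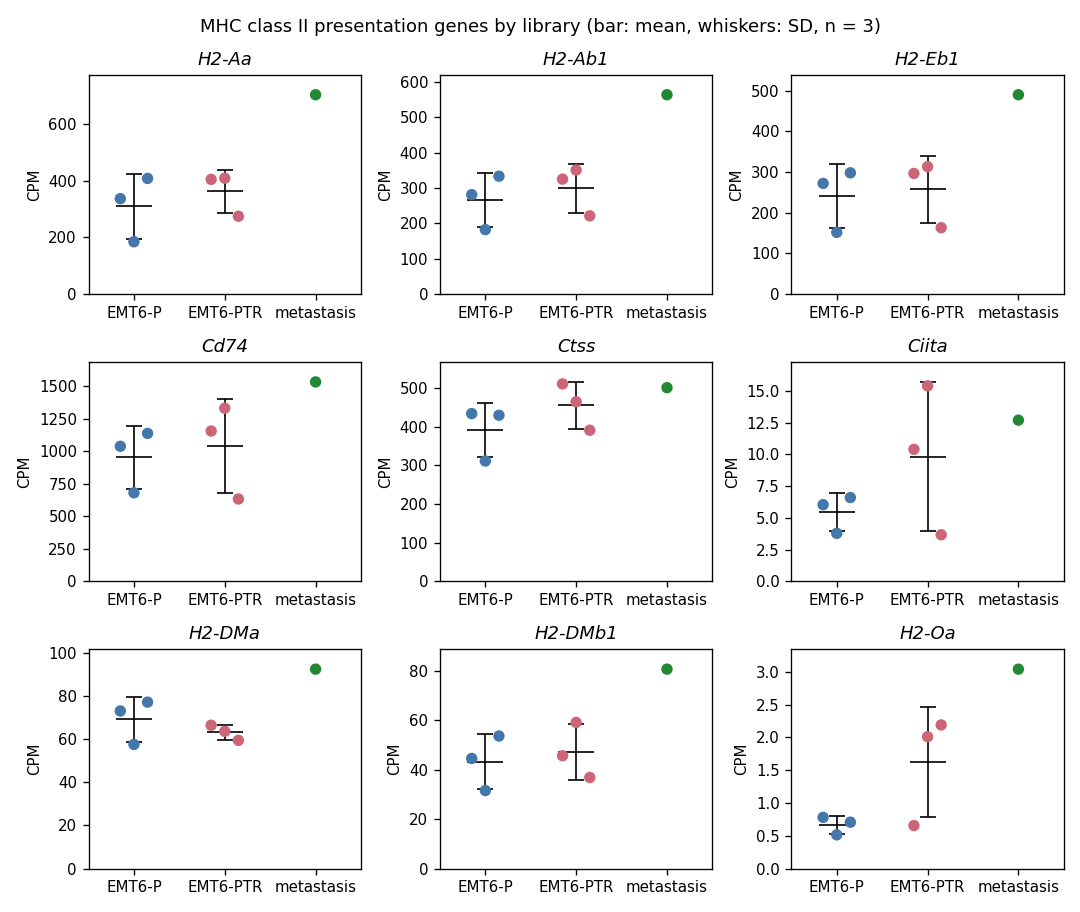
Level of each of the 9 genes (y axis, CPM from 0, own scale per gene) in EMT6-P tumors (blue), EMT6-PTR tumors (red) and the metastasis (green), each point a library, with replicates 1 to 3 from left to right and the mean and SD of 3 tumors in black. EMT6-P and EMT6-PTR overlap in every panel, and the single metastasis is highest in 7 of 9 panels, the exceptions being *Ciita* and *Ctss*.

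*Cd74* (chromosome 18, plus strand) encodes the invariant chain, the chaperone of the class II chains, and was the most abundant of the set. It was at 1037.4, 680.0 and 1136.0 CPM in EMT6-P and at 1154.5, 1329.7 and 632.5 CPM in EMT6-PTR. The lowest and the highest of the 6 tumors both belonged to EMT6-PTR. The means were 951.2 ± 239.9 and 1038.9 ± 362.7 CPM (SD, n = 3 each), and the log2 fold change was 0.13 ± 0.33 (SE), with a 95% interval from -0.66 to 0.92 (edgeR adjusted p = 0.89). The estimate changed sign without EMT6-P replicate 2 (-0.07) or EMT6-PTR replicate 2 (-0.09).

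*Ctss* (chromosome 3, 95526786 to 95556403, plus strand) encodes cathepsin S, the protease that cuts the invariant chain and is abundant in macrophages. It was at 433.3, 310.9 and 429.1 CPM in EMT6-P and at 510.0, 464.0 and 390.4 CPM in EMT6-PTR. EMT6-PTR replicates 1 and 2 lay above all EMT6-P tumors and EMT6-PTR replicate 3 within their range. The log2 fold change was 0.22 ± 0.19 (SE), with a 95% interval from -0.24 to 0.68 (edgeR adjusted p = 0.648).

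*Ciita* (chromosome 16, 10480059 to 10528418, plus strand), the class II transactivator, was low and had the largest coefficient of variation of the 9 within EMT6-PTR (59.8%). It was at 6.04, 3.78 and 6.6 CPM in EMT6-P and at 10.4, 15.4 and 3.67 CPM in EMT6-PTR. EMT6-PTR replicates 1 and 2 were above every EMT6-P tumor, and EMT6-PTR replicate 3 was below every one. The log2 fold change was 0.84 ± 0.53 (SE), with a 95% interval from -0.42 to 2.10 (edgeR unadjusted p = 0.158, edgeR adjusted p = 0.542). Leaving out EMT6-PTR replicate 2 gave 0.36, and leaving out replicate 3 of that group gave 1.23.

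The chains did not follow *Ciita* in proportion. Per kilobase of exon, the ratio of *H2-Ab1* to *Ciita* was 173.0, 179.2 and 187.7 in EMT6-P, where it varied little. It was 116.3, 84.8 and 223.9 in EMT6-PTR, below the EMT6-P range in replicates 1 and 2 and above it in replicate 3. It was 164.8 in the metastasis. This ratio was chosen for its values and was not tested.

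*H2-DMa* and *H2-DMb1* encode the α and a β chain of H2-DM, the catalyst of peptide exchange in the endosome. *H2-DMa* (chromosome 17, 34119541 to 34139101, plus strand) was the steadiest of the 9, at 73, 57.5 and 77.1 CPM in EMT6-P and 66.4, 63.6 and 59.4 CPM in EMT6-PTR. All EMT6-PTR tumors lay within the EMT6-P range, and it was the only one of the 9 with a negative estimate, -0.13 ± 0.15 (SE) on the log2 scale, with a 95% interval from -0.49 to 0.23 (edgeR adjusted p = 0.722). *H2-DMb1* (chromosome 17, 34153072 to 34160230, plus strand) was at 44.6, 31.6 and 53.7 CPM in EMT6-P and at 45.7, 59.2 and 36.9 CPM in EMT6-PTR. Both extremes of the 6 tumors, the lowest in EMT6-P and the highest in EMT6-PTR, fell in replicate 2. Its log2 fold change was 0.13 ± 0.26 (SE), with a 95% interval from -0.49 to 0.74 (edgeR adjusted p = 0.854), and changed sign without EMT6-P replicate 2 (-0.06) or EMT6-PTR replicate 2 (-0.07). The gene has a near-identical neighbour, *H2-DMb2*, at 36.6 to 54.1 CPM in EMT6-P and 39.7 to 60 CPM in EMT6-PTR. Reads common to both were divided by estimation, so that the split between them is uncertain.

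*H2-Oa* (chromosome 17, 34092340 to 34095234, plus strand) encodes the α chain of H2-O, the inhibitor of H2-DM, which is known from B cells and dendritic cells. It rested on few reads, with estimated counts of 16, 11 and 15 in EMT6-P and 15, 36 and 56 in EMT6-PTR. These correspond to 0.78, 0.514 and 0.707 CPM in EMT6-P and to 0.655, 2.01 and 2.19 CPM in EMT6-PTR. EMT6-PTR replicates 2 and 3 were above every EMT6-P tumor, and EMT6-PTR replicate 1 lay within the EMT6-P range. The log2 fold change was 1.27 ± 0.53 (SE), with a 95% interval from 0.01 to 2.53. The edgeR unadjusted p was 0.0489 and the edgeR adjusted p was 0.437, so that the difference did not pass the threshold.

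B cell genes were higher in the same tumors as *H2-Oa*. The summed level of 6 B cell genes was 1.07, 0.607 and 1.32 CPM in EMT6-P and 1.13, 9.25 and 6.92 CPM in EMT6-PTR. In EMT6-PTR replicate 3 nearly all of it was *Cd79a*, a signalling chain of the B cell receptor, at 5.78 CPM. The part of these cells in the level of *H2-Oa* was not tested. Its partner chain *H2-Ob* did not pass the filter on low counts and was at 0.0975, 0.0934 and 0.283 CPM in EMT6-P and 0.829, 1.5 and 0.156 CPM in EMT6-PTR. The 2 chains thus differed in EMT6-PTR replicate 3, where *H2-Oa* was at its highest of the 6 tumors and *H2-Ob* was not above the EMT6-P range.

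All 9 genes passed the filter on low counts, and 0 of 9 were called by edgeR at an adjusted p under 0.05, against 0% of the 15645 genes tested. Because edgeR called no gene at all, 0 calls in the lists below are not particular to those lists. At an unadjusted p under 0.05 there was 1 of 9, *H2-Oa*, against 11.4% of all genes. The groups overlapped for all 9 genes, whereas all 3 EMT6-PTR tumors lay on one side of all 3 EMT6-P tumors for 21.3% of all genes. That share also stands beside the genes of the lists below whose groups lay apart. DESeq2 called 0 of the 8 members to which it gave an adjusted p, against 2.05% of 13694 genes. It gave *H2-Oa* no adjusted p. The estimate was above 0 for 8 of the 9 genes, with a median of 0.17 (-0.04 without EMT6-P replicate 2), against 52.3% of all genes, with a median of 0.03, and 5 of the 8 positive signs turned when 1 tumor was left out.

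**Figure D2:**
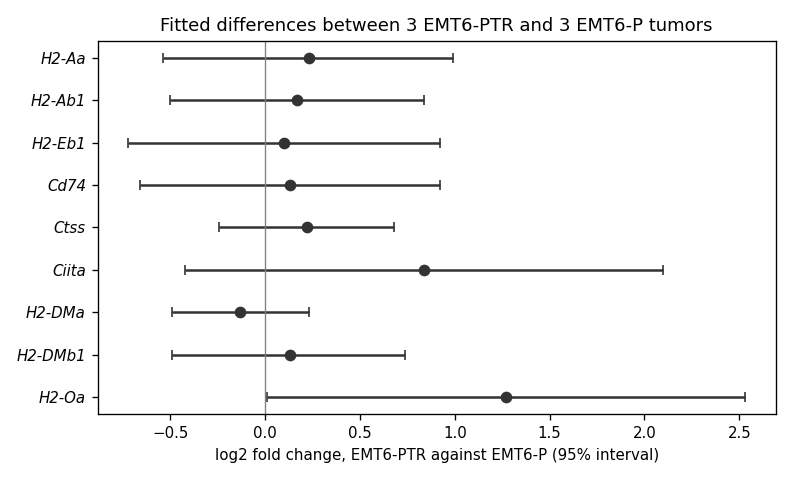
Log2 fold change of EMT6-PTR over EMT6-P for each gene (x axis, points, with 95% intervals as whiskers, from the fit to 3 tumors per group). The intervals of 8 genes include 0, and that of *H2-Oa* runs from 0.01 to 2.53 before adjustment over all genes.

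The classical chains, *Cd74* and *H2-DMb1* varied together over the tumors, *Ciita* did so in part, and *H2-Oa* did not. Among the 6 primary tumors the ratio of the highest to the lowest level was 2.1 for *Cd74*, 2.21 for *H2-Aa*, 1.92 for *H2-Ab1* and 2.06 for *H2-Eb1*. EMT6-P replicate 2 and EMT6-PTR replicate 3 were the 2 lowest tumors for all 4 of these genes. The ratio was 1.34 for *H2-DMa* and 1.64 for *Ctss* at the steady end, and 4.19 for *Ciita* and 4.26 for *H2-Oa* at the other. EMT6-P replicate 2 was the lowest of the 6 for 7 of the 9 genes, and EMT6-PTR replicate 3 for *Cd74* and *Ciita*.

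Described by correlation of log2 CPM with *H2-Ab1* over the 6 primary tumors, with no test, Pearson's r was 0.98 for *H2-Aa*, 0.97 for *H2-Eb1*, 0.96 for *H2-DMb1* and 0.94 for *Cd74*, with Spearman's rho of 1.00, 1.00, 1.00 and 0.89. Without the 2 tumors farthest from the median of *H2-Ab1*, r remained at 0.95, 0.99, 0.83 and 0.89 over 4 tumors. *Ciita* followed *H2-Ab1* with r of 0.87 and rho of 0.89, and r was 0.73 without those tumors. For *Ctss* r was 0.90 but 0.32 without them, and for *H2-DMa* it was 0.69 and then -0.44, so that these 2 relations rested on the tumors left out. *H2-Oa* had r of 0.15 and rho of 0.26. All points share their library's scaling and its content of cells.

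**Figure D3:**
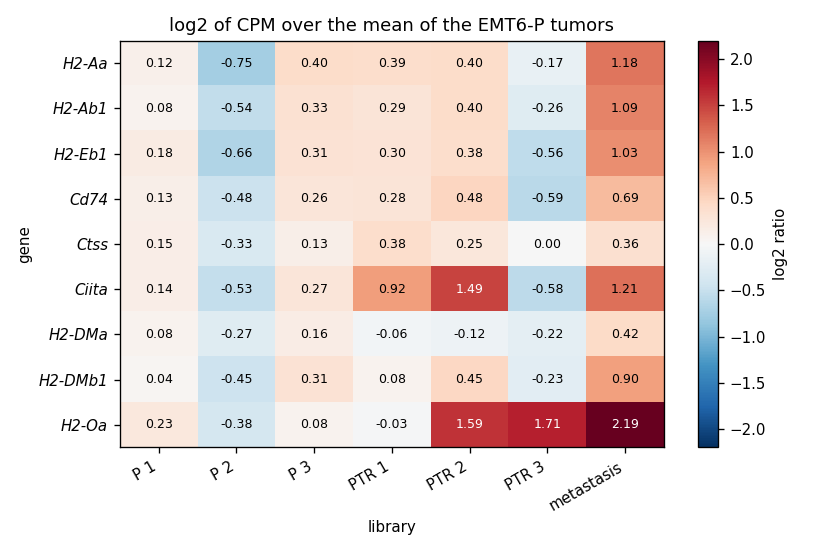
Log2 ratio of each gene's CPM in each library to its mean in the EMT6-P tumors (rows, genes; columns, libraries; red above and blue below, with the value in each cell). EMT6-P replicate 2 is below 0 in every row, EMT6-PTR replicate 3 is below 0 for the chains, *Cd74* and *Ciita* while *H2-Oa* is raised there, and the metastasis is above 0 in every row.

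Levels can be compared between genes only per length, here as CPM per kilobase of exon. In EMT6-P tumors *Cd74* was highest, with a mean of 566.5 and a range from 405.0 to 676.6. *Ctss* followed at 288.0 (229.0 to 319.1), apart from *Cd74* above it and from the chains below it. *H2-Eb1* was at 123.9 (78.2 to 153.5), *H2-Ab1* at 103.6 (71.1 to 130.0) and *H2-Aa* at 81.5 (48.6 to 107.3), and neighbours among these 3 overlapped over the tumors. *H2-DMb1* at 25.8 (18.8 to 31.9) and *H2-DMa* at 20.1 (16.7 to 22.4) formed the next step and overlapped with each other. *Ciita* at 0.574 (0.397 to 0.693) and *H2-Oa* at 0.474 (0.365 to 0.554) were lowest and overlapped. Compared within each library, *H2-Ab1* was above *H2-Aa* and *H2-DMb1* above *H2-DMa* in all 7. *H2-Eb1* was above *H2-Ab1* in 6 of 7 libraries, and *Ciita* above *H2-Oa* in 5 of 7. On this measure the chaperone and the protease were above the chains they serve, and the exchange factor was far above its inhibitor. The length used was the union of all annotated exons of a gene, 3798 bases for *H2-Aa* and 1358 bases for *Ctss*. This can exceed the length of a transcript, and its effect on the order was not tested. In CPM without division by length, *H2-Aa* (184.6 to 407.6) and *Ctss* (310.9 to 433.3) overlapped in EMT6-P.

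**Figure D4:**
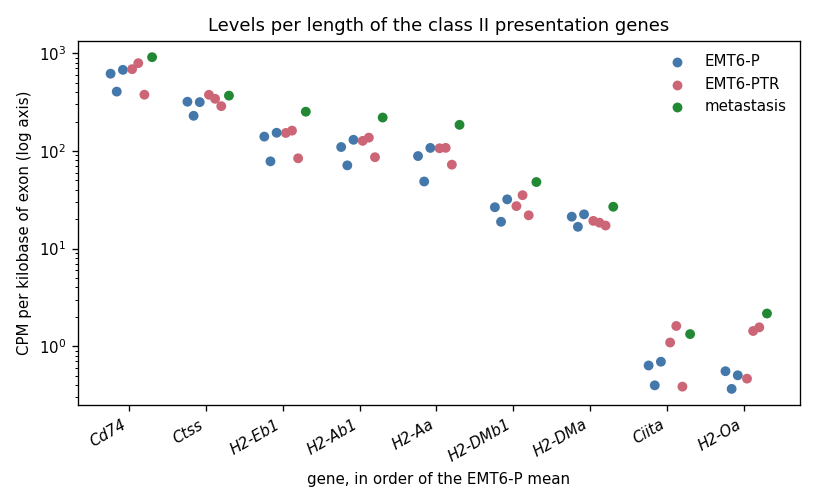
CPM per kilobase of exon (log y axis) of each gene in order of its EMT6-P mean, each point a library (blue, EMT6-P; red, EMT6-PTR; green, metastasis). The order runs from *Cd74*, at a mean of 566.5 in EMT6-P, to *Ciita* and *H2-Oa*, at 0.574 and 0.474.

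3 ratios between genes, which do not depend on library scaling, were compared by exact two-sided permutation tests over 20 assignments of the 6 tumors, in which no p can be below 0.1. The ratio of *Cd74* to *H2-Ab1*, the chaperone per chain, was 5.64, 5.7 and 5.21 in EMT6-P and 5.43, 5.79 and 4.37 in EMT6-PTR. It was nearly constant apart from EMT6-PTR replicate 3, and the groups differed by -0.09 on the log2 scale (exact permutation p = 0.7). The ratio of *H2-DMb1* to *H2-Oa*, the exchange factor per inhibitor, was 47.9, 51.5 and 63.5 in EMT6-P and 58.5, 24.7 and 14.1 in EMT6-PTR. EMT6-PTR replicates 2 and 3 were below every EMT6-P tumor and replicate 1 within their range, with log2 means of 5.75 ± 0.21 and 4.77 ± 1.03 (SD, n = 3 each) and a difference of -0.98 (exact permutation p = 0.3). Leaving out EMT6-PTR replicate 3 gave -0.50, and leaving out replicate 1 of that group gave -1.53.

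The ratio of *H2-Ab1* to *Ptprc*, class II message per pan-leukocyte message (CD45), was 31.6, 22.5 and 39.8 in EMT6-P and 27.8, 27.1 and 47.9 in EMT6-PTR. EMT6-PTR replicate 3, low in class II genes, was lower still in *Ptprc* and had the highest ratio of the 6 tumors. The groups differed by 0.12 on the log2 scale (exact permutation p = 0.7). Adjusted over the 3 ratios, p was 0.7 for each.

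The marker lists of cells that carry class II molecules moved with the genes in part. The summed level of 4 leukocyte genes was 487.8, 487.9 and 442.3 CPM in EMT6-P and 538.8, 464.7 and 282.5 CPM in EMT6-PTR. It was lowest in EMT6-PTR replicate 3, as were the chains within that group, but EMT6-P replicate 2, the lowest in the chains, was not low. The summed level of 8 macrophage genes ranged from 1469.0 to 1782.2 CPM in EMT6-P and from 1500.1 to 1772.4 CPM in EMT6-PTR, and EMT6-P replicate 2 had the lowest sum of the 6. Among these, *C1qa*, a complement gene of tissue macrophages, was at 380.1 to 480.5 CPM in the 6 tumors. Of 10 conventional dendritic cell genes, *Flt3* (their growth factor receptor), *Xcr1*, *Clec9a*, *Batf3* and *Cd209a* were each at most 1.65 CPM in the primary tumors. *Zbtb46*, a transcription factor that marks conventional dendritic cells, was at 3.97 to 10.2 CPM, *Ccr7* at 0.156 to 6.46 CPM, *Wdfy4* at 6.6 to 16.6 CPM and *Itgax* (CD11c) at 5.31 to 68.5 CPM. The list summed to 410.5 to 454.3 CPM in EMT6-P and 180.7 to 442.8 CPM in EMT6-PTR, most of it *Fscn1*, an actin-bundling gene that carcinoma cells can also express. The part of these cells in the class II levels was not tested.

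**Figure D5:**
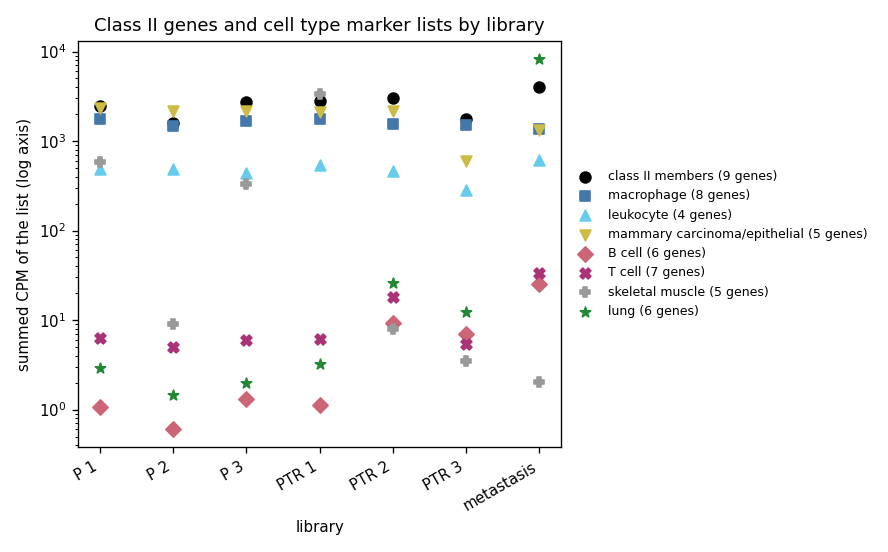
Summed CPM (log y axis) of the class II genes and of marker lists of other cell types in each library (x axis; each symbol is a list, with its number of genes in the key). The class II sum is lowest in EMT6-P replicate 2, at 1603.6 CPM, and EMT6-PTR replicate 3, at 1784.3 CPM, and is 3977.5 CPM in the metastasis, where the lung sum is 8227.2 CPM.

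The genes of the proteins that seat CIITA on promoters did not differ past the threshold between the groups, as no gene tested by edgeR did. Of 7 genes (*Rfx5*, *Rfxap*, *Rfxank*, *Nfya*, *Nfyb*, *Nfyc* and *Creb1*), 0 were called by edgeR, 3 had estimates above 0 and 4 below, and the median log2 fold change was -0.08. *Rfx5*, the large subunit of the RFX complex, was at 13.2, 16.7 and 12.6 CPM in EMT6-P and at 18.0, 13.0 and 19.7 CPM in EMT6-PTR, with overlapping groups. *Nfya*, the NF-Y subunit that contacts the CCAAT box, was at 47.0 to 52.6 CPM in EMT6-P and at 50.9, 57.7 and 24.5 CPM in EMT6-PTR, low only in replicate 3. *Nfyb* had groups that did not overlap, at 35.4 to 38.2 CPM in EMT6-P and 38.8 to 40.4 CPM in EMT6-PTR, with a log2 fold change of 0.10 (edgeR adjusted p = 0.730). *Rfxank* lay apart in the other direction, at 10.6 CPM in each EMT6-P tumor and 8.08 to 10.2 CPM in EMT6-PTR, with a log2 fold change of -0.20 (edgeR adjusted p = 0.653). The median of the list was 0.11 without EMT6-PTR replicate 3.

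Interferon-γ induces *Ciita* through JAK kinases and the factor IRF1. *Ifng* itself had 1 to 8 estimated counts in the primary tumors and did not pass the filter. Of the 9 other genes of this route, 0 were called by edgeR, 6 had estimates above 0 and 3 below, and the median log2 fold change was 0.12, which turned to -0.16 without EMT6-PTR replicate 2. *Irf1* was at 105.3, 82.6 and 99.9 CPM in EMT6-P and at 96.0, 134.3 and 58.4 CPM in EMT6-PTR. EMT6-PTR replicate 2, the tumor with the highest *Ciita*, thus had the highest *Irf1*, and EMT6-PTR replicate 3, with the lowest *Ciita*, had the lowest. Other genes of the route had another order: *Ifngr1*, a receptor chain, and the kinase gene *Jak2* were highest of the 6 in EMT6-PTR replicate 3, at 121.5 and 66.4 CPM. The log2 fold change of *Irf1* was 0.0044 (edgeR adjusted p = 0.996).

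None of the other enzymes and regulators of the class II route passed the threshold, as no gene tested by edgeR did. Of 10 genes of antigen processing and class II turnover, 0 were called by edgeR, 5 estimates were above 0 and 5 below, and the median log2 fold change was 0.02, which fell to -0.0026 without EMT6-P replicate 2 and to -0.02 without EMT6-PTR replicate 3. *Ifi30*, the lysosomal thiol reductase GILT, was at 118.6 to 156.2 CPM in EMT6-P and 104.7 to 121.8 CPM in EMT6-PTR (log2 fold change -0.24, edgeR adjusted p = 0.548). *March1*, a ubiquitin ligase that sends class II molecules to degradation, was at 9.11 to 13.3 CPM in EMT6-P and 12.5 to 14.9 CPM in EMT6-PTR (0.30, edgeR adjusted p = 0.566). *March8*, a related ligase, lay apart between the groups, at 48.3 to 52.3 CPM in EMT6-P and 53.1 to 63 CPM in EMT6-PTR (0.17, edgeR adjusted p = 0.585). Of the 3 other chains, *H2-Eb2* and *H2-DMb2* were tested and neither was called, with a median of 0.20 that ranged from 0.0035 without EMT6-P replicate 2 to 0.83 without EMT6-P replicate 1.

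On the side of the T cell, class II molecules are read by CD4 and bound by the inhibitory receptor LAG3. Of 6 genes of receptors and costimulation, 0 were called by edgeR, 5 estimates were above 0 and 1 below, and the median log2 fold change was 0.30, which turned to -0.22 without EMT6-PTR replicate 2. *Cd4* was low, at 1.12, 0.934 and 1.93 CPM in EMT6-P and 1.18, 3.29 and 1.91 CPM in EMT6-PTR (edgeR adjusted p = 0.593). *Lag3* lay apart between the groups, at 2.8 to 3.56 CPM in EMT6-P and 3.67 to 4.81 CPM in EMT6-PTR, with a log2 fold change of 0.42 (edgeR adjusted p = 0.543).

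Class I presentation, which shows peptides of the cell's own proteins to CD8+ T cells, was divided in its order over the tumors. Of its 10 genes 0 were called by edgeR, 6 estimates were above 0 and 4 below, and the median log2 fold change was 0.05, against 0.17 for the class II genes. Both medians turned when 1 tumor was left out, that of class I to -0.08 without EMT6-PTR replicate 3 and to -0.0049 without EMT6-PTR replicate 2, and that of class II to -0.04 without EMT6-P replicate 2. *H2-K1*, a class I heavy chain, was at 1682.2, 1519.2 and 1617.7 CPM in EMT6-P and at 1295.5, 1696.1 and 2315.8 CPM in EMT6-PTR. It was thus highest of the 6 in EMT6-PTR replicate 3, where the class II chains were next to lowest. *H2-D1*, *B2m* and *Tapbp* were also highest there. The other way, *Tap2*, *Psmb8*, *Psmb9* and *Psmb10* were lowest of the 6 in that tumor, at 116.3, 200.7, 76.1 and 33.1 CPM. Of the 10 genes only *Psmb8* and *Psmb10* lay apart, lower in all EMT6-PTR tumors, while 21.3% of all genes lay apart in either direction. For *Psmb8* the gap was narrow, with 324.9 CPM in EMT6-PTR replicate 2 against 325.2 CPM in EMT6-P replicate 3. *Psmb10*, an immunoproteasome subunit, was at 65.8, 56.8 and 33.1 CPM in EMT6-PTR against 76.9 to 96.0 CPM in EMT6-P, with a log2 fold change of -0.69 that did not pass the threshold (edgeR adjusted p = 0.432).

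The 10 genes whose pattern over the 7 libraries was most like that of the mean of *H2-Aa*, *H2-Ab1*, *H2-Eb1* and *Cd74* had Pearson's r between 0.950 and 0.982. They were *H2-Ea-ps*, *Slamf6*, *Kctd12b*, *H2-DMb2*, *Opa3*, *Cd300a*, *Lama1*, *Rasgrp3*, *Fcgr4* and *C6*. *H2-Ea-ps* and *H2-DMb2* are class II genes outside the 9, and *Fcgr4*, an activating receptor for IgG on myeloid cells, was at 11.2 to 29.2 CPM in EMT6-P and 21.5 to 35.1 CPM in EMT6-PTR. The metastasis was one of the 7 points and had the highest level of each of these 10 genes.

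The metastasis, with 1 library, is compared by its values and without a test. It lay above all 3 EMT6-PTR primary tumors for 7 of the 9 genes, against 25.8% of all genes, and reached at least 2-fold the EMT6-PTR mean for 0 of 9, against 10.6% of all genes. *H2-Aa* was at 702.5 CPM, 1.94-fold the mean of the EMT6-PTR primary tumors, *H2-Ab1* at 564.2 CPM (1.88-fold), and *H2-Eb1* at 490.3 CPM (1.9-fold). The 3 chains thus stood at nearly the same ratio, while *Cd74*, at 1531.3 CPM, was 1.47-fold the mean. The ratio of *Cd74* to *H2-Ab1* per kilobase was 4.15, below that of every primary tumor.

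Among the other members, *H2-DMa* was at 92.4 CPM (1.46-fold), *H2-DMb1* at 80.8 CPM (1.71-fold) and *H2-Oa* at 3.04 CPM (1.88-fold, from 76 estimated counts). *Ciita*, at 12.7 CPM (1.3-fold), and *Ctss*, at 500.3 CPM (1.1-fold), lay inside the range of the EMT6-PTR primary tumors. The cell markers beside these values differed from the primary tumors in several lists. The B cell sum was 25.4 CPM, the T cell sum was 33.8 CPM and the leukocyte sum was 620.3 CPM, each above every primary tumor. The macrophage sum, at 1368.4 CPM, was below every one. Within the leukocyte list only *Coro1a* (236.4 CPM) and *Cd52* (54.6 CPM) were above every primary tumor. *Ptprc* (90 CPM) and *Laptm5* (239.4 CPM) lay within the range of the primary tumors. Of the 10 dendritic cell genes, 4 were above every primary tumor: *Flt3* at 2.28 CPM (5.85-fold the EMT6-PTR mean), *Clec9a* at 3.68 CPM (4.77-fold), *Zbtb46* at 13.3 CPM (2.05-fold) and *Batf3* at 2.48 CPM (1.93-fold). The others lay within the EMT6-PTR range, except *Fscn1*, which was below it at 149.8 CPM. The monocyte gene *Ly6c2* was at 59.4 CPM, 11.9-fold the EMT6-PTR mean. The other monocyte genes, *Ccr2* (28.1 CPM, 0.391-fold), *Vcan* (175.5 CPM, 0.644-fold) and *Plac8* (109.0 CPM, 1.79-fold), lay within the EMT6-PTR range. So did the sum of the monocyte list, at 372.0 CPM against 312.3 to 519.9 CPM. Lung tissue holds cells that express class II molecules, and the part of lung, dendritic, monocytic, B and T cells in the metastasis values cannot be told apart from that of the tumor with 1 library.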

How the data were processed

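Stranded poly(A) RNA libraries were made from 3 tumors each of EMT6-P and EMT6-PTR and from 1 metastasis. The authors checked reads with FastQC 0.11.5, aligned them with STAR 2.6.0a to GRCm38 with the GENCODE M16 annotation and deposited estimated counts per gene from RSEM 1.3.1, before filtering or normalization. Of 53465 identifiers, 53274 were matched to a symbol in GENCODE M21 of the same assembly, which also gave positions and exon lengths. Counts were rounded. The 6 primary tumors were tested with edgeR 4.0.16 in R 4.3.3 (filterByExpr, upper-quartile factors, glmQLFit, glmQLFTest, Benjamini-Hochberg, threshold 0.05), a fit checked on simulated counts. The simulated counts varied less between replicates than these data (common dispersion 0.14) and held only large changes. The check therefore does not cover small differences at the spread of these tumors. A gene at 0 could hold up to 3 counts per library, and this covers counting error only. Groups were taken from sample titles. The 9 genes are given in full. Of the other lists, counts and selected genes among those with the smallest p are given, with regulators by value, and the 10 genes most like the core genes. The members and lists were chosen with earlier results of these data known. *Irf1*, *Nfya*, *March8*, *C1qa*, most class I genes and the marker genes were picked from their lists after their values were seen. Alternatives were TMM, DESeq2 1.42.0, limma-voom 3.58.1, other count filters, the metastasis in the fit, a replicate block, and leaving out each tumor.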

Additional observations from a re-analysis of the deposited data

How the results depend on the processing

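With 3 tumors per group the intervals of the 9 genes span several-fold differences for *Ciita* and *H2-Oa*, and *H2-Oa* rests on 11 to 56 counts in the primary tumors. The number of class II genes called was 0 under every alternative run, and their adjusted p ranged from 0.134 (*Ciita*, without EMT6-PTR replicate 3) to 0.983. Over all genes, 0 were called in the fit reported and 281 under DESeq2, and the cause was not tested. Leaving out 1 tumor at a time gave ranges of log2 fold changes from -0.09 to 0.38 for *Cd74*, from -0.04 to 0.48 for *H2-Aa*, from -0.04 to 0.37 for *H2-Ab1*, from -0.15 to 0.34 for *H2-Eb1* and from -0.07 to 0.31 for *H2-DMb1*. The reversals were *Cd74* at -0.07 without EMT6-P replicate 2 and at -0.09 when EMT6-PTR replicate 2 was left out, *H2-Aa* and *H2-Ab1* at -0.04 each without EMT6-P replicate 2, *H2-Eb1* at -0.15, -0.02 and -0.06 without EMT6-P replicate 2, EMT6-PTR replicate 1 and EMT6-PTR replicate 2, and *H2-DMb1* at -0.06 and -0.07 without replicate 2 of EMT6-P or of EMT6-PTR. The log2 ratio of *Cd74* to *H2-Ab1* ranged from -0.18 to 0.03, turning without EMT6-PTR replicate 3. That of *H2-Ab1* to *Ptprc* ranged from -0.15 to 0.31, turning without EMT6-P replicate 2 (-0.10) or EMT6-PTR replicate 3 (-0.15). *Ciita* stayed above 0, from 0.36 to 1.23, as did *H2-Oa*, from 0.97 to 1.64.

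Same-numbered tumors deviated from their group means with correlations of 0.259, 0.253 and 0.0384. The tumors numbered 1 were each other's best match across the groups, as were those numbered 2, but not those numbered 3. The labels do not say what the numbers mark. They were not taken to pair the samples, and a block for them was run as an alternative. With the replicate number as a block, 0 class II genes were called (adjusted p from 0.608 to 0.946) and the ratios differed by -0.09, -0.98 and 0.12.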
